A study of Homo sapiens with 36 samples.

Results

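The genes described here are the 56 protein-coding genes of GENCODE 44 whose symbol starts with EIF followed by a digit, out of 20046 protein-coding genes and 62700 genes of all types. They encode the eukaryotic translation initiation factors, some close paralogs, 4 kinases that regulate eIF2 and proteins that bind eIF4E. A cluster, the stretch of RNA that a peak caller took as crosslinked in PAR-CLIP, was assigned to a gene when its midpoint lay in the gene body on the same strand. Membership followed from the name alone and used no measured value.

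The data were 18 lists of clusters from HEK293 Flp-in T-Rex cells, a human embryonic kidney line, made from 36 libraries. FLAG immunoprecipitates (IP) and inputs came from a line with an inducible FLAG-SCAF4, a line with an inducible FLAG-SCAF8 and the parental line with no tagged protein (control), in 3 replicates each. According to the labels, the tagged lines received 100 ng/mL doxycycline overnight and no dose is given for the parental line, while the methods give 1 ug/mL overnight for all 3, parental cells included. All cells were labeled with 4-thiouridine (100 uM overnight, then 500 uM for 2 h) and irradiated at 365 nm with 2000 J/m2. Soluble and chromatin fractions of a replicate were combined in 1 list, so the compartments cannot be compared. Each tagged protein was represented by 1 line, so line and protein cannot be told apart. The lists hold 18287 to 54404 clusters in the 6 SCAF4 and SCAF8 IPs, 1621 to 9638 in the control IPs and 4567 to 12493 in the 9 inputs. They hold no reads, so the read depth is unknown, and every share below is clusters in a gene per 10000 clusters of the same list. The tagged genes checked the labels: the SCAF4 gene held 16 to 17 clusters in the inputs of the FLAG-SCAF4 line and 1 to 7 in the other 6 inputs, and the SCAF8 gene 18 to 20 in the inputs of the FLAG-SCAF8 line and 1 to 10 in the others.

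SCAF4 and SCAF8 are nuclear proteins that bind the C-terminal domain of RNA polymerase II and RNA. Translation initiation itself takes place in the cytoplasm. There eIF2 brings the initiator tRNA to the small ribosomal subunit, eIF2B recharges eIF2 with GTP, eIF3 holds the subunit open for mRNA, and eIF4E, eIF4G and the helicase eIF4A recognise the cap and unwind the leader. The results concern contacts of SCAF4 and SCAF8 with the transcripts of these genes, and protein contacts were not measured.

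A cluster in a highly expressed transcript can appear in an IP through its abundance alone. A region was therefore called recurrent when 2 or more of the 6 lists from SCAF4 and SCAF8 IPs held it. It was then removed when more than 1 input had a cluster there, when its gene reached 1 merged region of the inputs for every 10 kb (the input density limit), or when a control IP cluster overlapped it. What remained is called a consensus cluster. To show what the recurrent sites look like, 8 consensus clusters with their midpoint in a coding exon or an intron are printed. They were the 8 found in the most IP lists among the initiation factor genes other than EIF3E and EIF3H, whose regions were not ranked. Each is the 100 nt of the transcribed strand around the midpoint (GRCh38), from 5′ to 3′, and capitals mark the triplets CGG and CGA, the word CCAGC, the word CCAGG, the word GCAGC, the word GCAGG, and the words CTCC and CACC.
EIF4E, intron 2, chr4:98893689-98893788, minus strand, 6 of 6 IP lists: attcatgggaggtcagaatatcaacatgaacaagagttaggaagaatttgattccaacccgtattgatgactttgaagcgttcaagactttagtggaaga
EIF2B5, coding exon 3, chr3:184137694-184137793, plus strand, 5 of 6 IP lists: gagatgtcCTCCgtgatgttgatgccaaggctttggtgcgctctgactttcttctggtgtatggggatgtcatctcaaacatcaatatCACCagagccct
EIF2AK1, coding exon 12, chr7:6028917-6029016, minus strand, 5 of 6 IP lists: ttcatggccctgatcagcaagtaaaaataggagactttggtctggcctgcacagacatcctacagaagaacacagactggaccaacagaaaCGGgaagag
EIF2B1, coding exon 2, chr12:123632339-123632438, minus strand, 5 of 6 IP lists: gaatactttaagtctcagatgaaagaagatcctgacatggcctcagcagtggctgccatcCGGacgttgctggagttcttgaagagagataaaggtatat
EIF2AK3, coding exon 14, chr2:88570942-88571041, minus strand, 4 of 6 IP lists: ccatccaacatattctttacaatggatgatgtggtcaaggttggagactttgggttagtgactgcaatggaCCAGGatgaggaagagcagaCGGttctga
EIF2B3, coding exon 4, chr1:44941543-44941642, minus strand, 4 of 6 IP lists: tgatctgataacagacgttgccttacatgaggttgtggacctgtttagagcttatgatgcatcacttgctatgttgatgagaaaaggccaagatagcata
EIF5B, coding exon 16, chr2:99390270-99390369, plus strand, 4 of 6 IP lists: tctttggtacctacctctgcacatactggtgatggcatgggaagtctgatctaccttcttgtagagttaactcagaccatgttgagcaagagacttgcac
EIF2B5, coding exon 9, chr3:184142269-184142368, plus strand, 3 of 6 IP lists: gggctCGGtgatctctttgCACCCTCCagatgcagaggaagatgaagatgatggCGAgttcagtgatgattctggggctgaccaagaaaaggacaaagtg

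These 8 regions lay in 7 genes, and 4 of the regions were in eIF2B genes. Exon and intron numbers are those of the Ensembl canonical isoform. The EIF4E region, 316 nt long, was the only consensus cluster of these genes present in all 6 IP lists and was absent from all inputs and control IPs. It overlapped no exon of any annotated isoform, and its nearer end lay 2249 nt from the nearest canonical exon. It is also partly a repeated sequence: of its 297 words of 20 nt, 160 occurred once in GRCh38, and the most frequent occurred at 196 places, so reads of other copies could have been placed there. Of the other 7 regions, EIF2AK1 exon 12 had 35.5% of its words elsewhere in the genome, and the other 6 had 0.671% to 2.92%. The windows of EIF4E, EIF2B3 and EIF5B held none of the motifs, and the other 5 held at least 1. The next regions in this order, which left out EIF3E and EIF3H, lay in EIF2B3 exon 2 and EIF4G3 intron 11. They were found in 3 lists each.

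Clusters were found in 51 of the 56 genes. The other 5 were EIF1AY, EIF4E1B, EIF4E3, EIF4EBP3 and EIF5A2. All 51 had a cluster in some SCAF4 or SCAF8 IP, 34 had one in all 6, 33 in any control IP, 45 in any input and 13 in all 9 inputs. The SCAF4 IPs held 220, 483 and 335 clusters in these genes, and the SCAF8 IPs 244, 187 and 338. The control IPs held 111, 43 and 23. Per 10000 clusters of the list this was 88.8 to 116 for SCAF4, 81.4 to 102 for SCAF8, 115 to 186 for control IP and 101 to 179 for the inputs. As a group, the genes took no larger share of the SCAF4 and SCAF8 lists than of the others: 1 of the 3 control IPs and 5 of the 9 inputs lay within the range of the SCAF IPs, and the rest lay above it. A cluster needs reads, so its presence also moves with the amount of the transcript, and in bulk material fewer cells with a transcript and less of it per cell cannot be told apart.

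**Figure D1:**
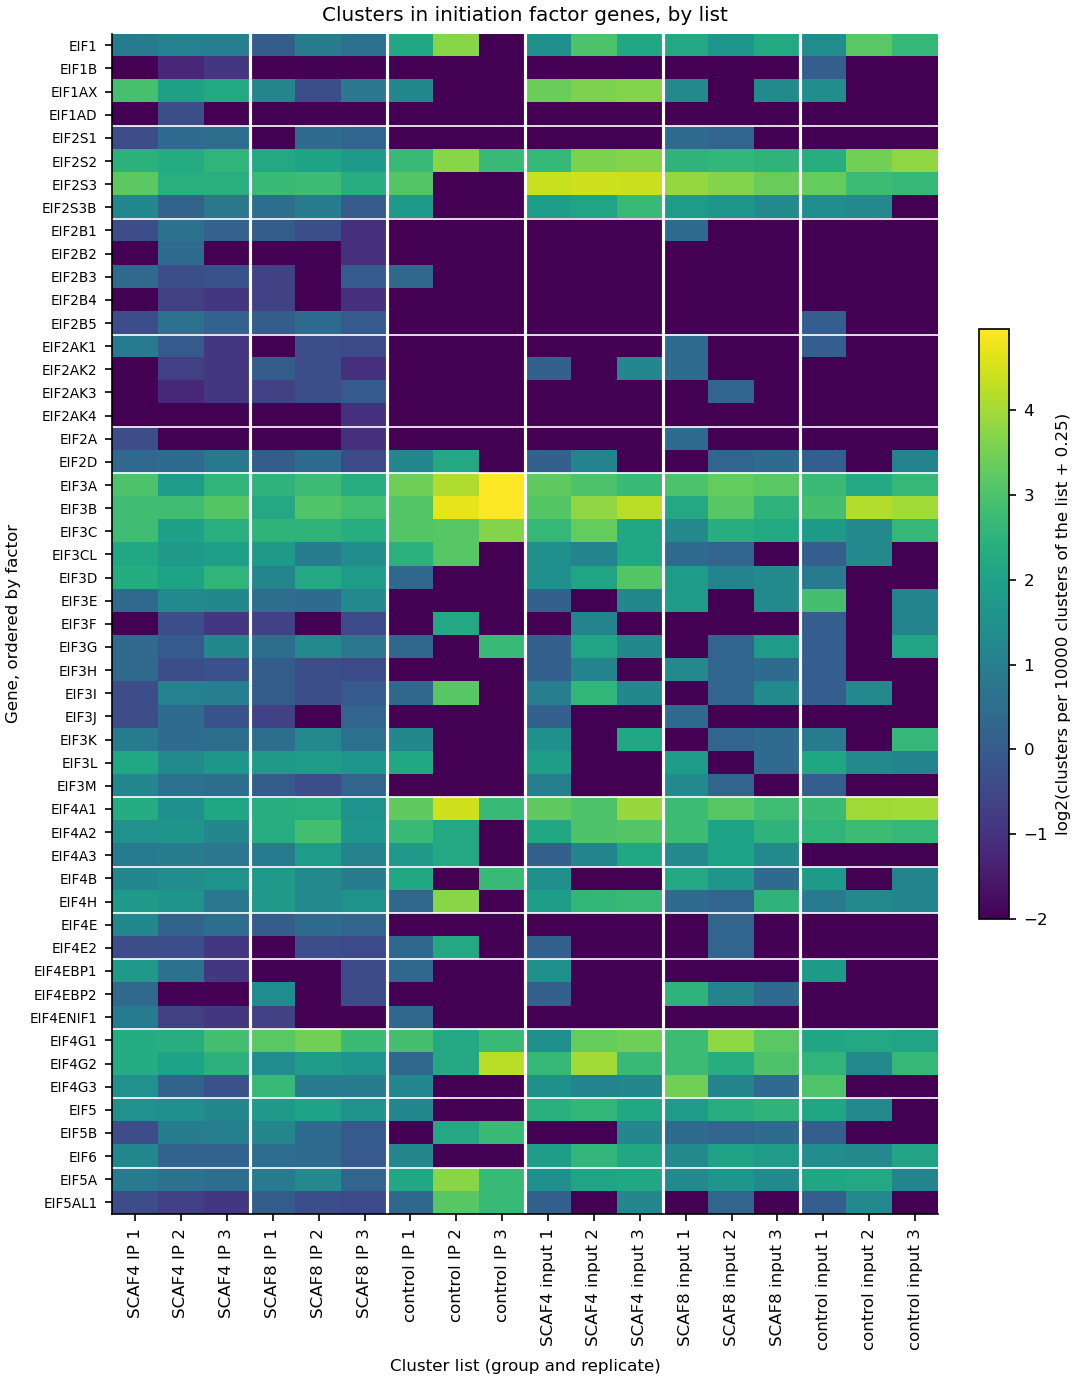
Clusters in the 51 initiation factor genes with a cluster in any list. Each row is a gene, ordered by factor, each column is 1 list, and colour gives log2 of the clusters per 10000 clusters of the list plus 0.25, so the darkest cells hold no cluster. EIF2B1 to EIF2B5 are filled in 12 of the 15 cells of the SCAF4 IP columns and almost empty in the 9 input columns, while EIF2S2, EIF3B and EIF4A1 are bright in all 9.

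The inputs were concentrated in a few genes. EIF2S3, the gamma subunit of eIF2, held 24, 11 and 10 clusters in the SCAF4 inputs, 13, 13 and 9 in the SCAF8 inputs and 12, 3 and 3 in the control inputs. EIF3B, a scaffold subunit of eIF3, held 4 to 10 clusters in each input, and EIF4A1 4 to 11. EIF3A, the largest eIF3 subunit, held 2 to 11 and EIF2S2, the beta subunit of eIF2, 5 to 7. The IP lists also held many clusters of these 5 genes, between 7 (EIF2S2 in SCAF8 IP 2) and 37 (EIF3B in SCAF4 IP 2). The transcripts with the most input clusters were thus also found in every SCAF4 and SCAF8 IP.

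The removal steps took most of the regions of these genes. Of 379 recurrent regions, 225 were left after the overlap with inputs, 57 after the input density limit and 52 after the overlap with control IPs. The share kept was 13.7%, against 38.6% of the 41704 recurrent regions of the whole series. For SCAF4 alone (at least 2 of 3 replicates), 31 of 305 regions were kept (10.2%, against 34.4% of all regions), and for SCAF8 alone 14 of 220 (6.36%, against 24.6%). At the density limit were 29 of the 51 genes (56.9%), and 23.4% of the 9830 protein-coding genes with a cluster. These 29 were shorter, with a median gene length of 18330 nt against 40256.5 nt for the 22 others, and a short gene reaches the limit with fewer input regions. Without the density limit, 201 consensus clusters in 44 genes would have been left.

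**Figure D2:**
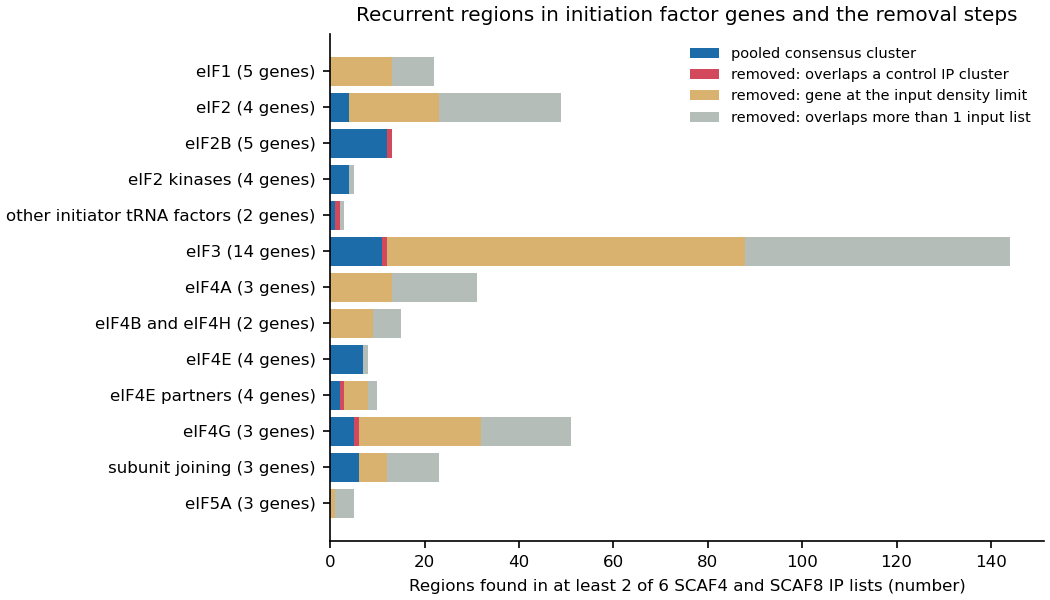
Recurrent regions of each factor, as held by 2 or more of the IP lists, and what became of them. Each bar is a factor with its number of genes, the length is the number of regions, and colours give the removal step or the consensus clusters left. Of 13 regions in eIF2B genes 12 were left, of 144 in eIF3 genes 11, and of 31 in eIF4A genes 0.

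At least 1 consensus cluster was left in 18 of the 51 genes (35.3%), with 52.6% of protein-coding genes as the background. For SCAF4 alone there were 15 genes (29.4%, background 41.5%) and for SCAF8 alone 11 (21.6%, background 27.7%). All 11 SCAF8 genes were also SCAF4 genes. Among the 22 genes under the density limit, 18 had a consensus cluster, as did 68.1% of the 7534 protein-coding genes under it. The lower share of the whole group lay with the genes at the limit. The density step removes every region assigned to such a gene, so that split was fixed by the rule. Of the 52 consensus clusters, 38 (73.1%) were built from lists of both proteins, 11 from SCAF4 lists only and 3 from SCAF8 lists only, and the share from both was 68.8% over all protein-coding genes. Replicates 2 and 3 carried much of the set, with 28 consensus clusters without replicate 2, 32 without replicate 3 and 67 without replicate 1. Between the sets built separately for each protein, 10 of the 14 SCAF8 clusters (71.4%) overlapped 10 of the 31 SCAF4 clusters (32.3%).

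The 5 genes of eIF2B, the exchange factor that returns eIF2 to its GTP-bound form, were nearly free of input clusters. Together they held 56 clusters in the 6 IP lists, 2 in the 9 inputs and 1 in the control IPs, and 12 of their 13 recurrent regions were left as consensus clusters, in all 5 genes. The removal steps use the same inputs, so the regions left are not a separate sign. Few input clusters were not particular to eIF2B. The eIF4E genes held 29 clusters in the IP lists and 3 in the inputs, with 7 of 8 recurrent regions left. The eIF2 kinase genes held 26 and 6, with 4 of 5 left. EIF2B5, the catalytic epsilon subunit, had 1, 7 and 3 clusters in the SCAF4 IPs, 2, 2 and 3 in the SCAF8 IPs, 0 in every control IP and 1 in a single input. EIF2B1, the alpha subunit, had 1, 7 and 3 in the SCAF4 IPs, 2, 1 and 1 in the SCAF8 IPs, 0 in every control IP and 1 in a single input. EIF2B3, the gamma subunit, had 2, 3 and 2 in the SCAF4 IPs, 1, 0 and 3 in the SCAF8 IPs, 1 in a control IP and 0 in all inputs. EIF2B4 had 3 clusters over the SCAF4 IPs and 2 over the SCAF8 IPs, and EIF2B2 6 clusters in SCAF4 IP 2 and 1 in SCAF8 IP 3, with no input cluster in either gene. The longest list, SCAF4 IP 2, thus supplied most of the clusters of EIF2B2 and the most of any list in EIF2B1 and EIF2B5.

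The kinases that phosphorylate eIF2 and so limit eIF2B were sparse. EIF2AK1 (HRI, the heme-regulated kinase) held 3, 4 and 1 clusters in the SCAF4 IPs, 0, 1 and 2 in the SCAF8 IPs, none in control IPs and 2 over the inputs, with 3 consensus clusters. EIF2AK3 (PERK, the kinase of the endoplasmic reticulum) had 1 consensus cluster, in exon 14. EIF2AK2 (PKR) and EIF2AK4 (GCN2) had none. The substrate itself, the alpha subunit of eIF2 (EIF2S1), had 1, 6 and 4 clusters in the SCAF4 IPs, 0, 2 and 4 in the SCAF8 IPs, none in the control IPs and 2 over the inputs, with 4 consensus clusters. It was the only eIF2 subunit gene with any, and the other 3 genes were at the input density limit. EIF2S3B is a copy of EIF2S3 elsewhere in the genome, so reads may have been divided between the 2 genes.

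The cap-binding protein gene EIF4E had 6 consensus clusters, 2 of them over whole coding exons and 4 in introns. EIF4E held 4, 5 and 4 clusters in the SCAF4 IPs, 2, 2 and 4 in the SCAF8 IPs, none in the control IPs and 1 in a single input. Its 2 exonic regions shared 51.3% and 57.7% of their words of 20 nt with other places of the genome. In its 4 intronic regions 46.1%, 23.6%, 11.0% and 1.38% of the words were so shared. The most frequent word, in the region with 11.0%, occurred at 48073 places. The paralog EIF4E2 had 1 consensus cluster. EIF4ENIF1, which carries eIF4E into the nucleus, had 2 consensus clusters and no input cluster. EIF4EBP1 and EIF4EBP2, the repressors of eIF4E, had none.

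Among the larger factors, single genes carried the consensus clusters. In eIF3, 10 of 14 genes were at the density limit, and the 11 consensus clusters lay in EIF3E (6), EIF3J (3), EIF3F and EIF3H (1 each). All 88 words of 20 nt in the EIF3F region occurred elsewhere in the genome as well, at up to 5 places in all, so its reads cannot be placed with certainty. EIF3E held 2, 12 and 7 clusters in the SCAF4 IPs, 3, 2 and 9 in the SCAF8 IPs and none in the control IPs. Its inputs held 17, of which 9 came from control input 1. EIF3J, a loosely bound subunit, held 1, 6 and 2 in the SCAF4 IPs, 1, 0 and 4 in the SCAF8 IPs and 2 over the inputs. In eIF4G, only EIF4G3 was under the limit, with 5 consensus clusters, 3 of them from SCAF8 lists only. EIF4G3 held 5, 5 and 2 clusters in the SCAF4 IPs, 16, 3 and 7 in the SCAF8 IPs and 10 in each of SCAF8 input 1 and control input 1. EIF5B, the GTPase of subunit joining, held 1, 9 and 6 in the SCAF4 IPs, 5, 2 and 3 in the SCAF8 IPs, 0 or 1 in every input and 6 consensus clusters. No consensus cluster was left in the genes of eIF1, eIF4A, eIF4B, eIF4H or eIF5A.

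The share of each gene was compared between the 6 lists of SCAF4 or SCAF8 IPs and the 9 inputs with a two-sided exact permutation test over lists, adjusted by Benjamini-Hochberg over the 12711 genes with a cluster. The test left the pairing of each IP with the input of its own extract out of account. The paper calls the replicates biological, and the labels do not say how the cultures were separated. Of the 51 genes, 3 (5.88%) were higher in the IPs at an adjusted p under 0.05, with 9.66% of all genes and 11.0% of protein-coding genes as the background. Lower were 4 (7.84%), with 2.95% of all genes and 2.34% of protein-coding genes as the background. Without adjustment, 8 genes were higher and 9 lower at p under 0.05, but the share of all genes at this limit was not worked out. By share, 26 genes had a higher mean in the IPs and 25 a lower one, and the median difference was 0.00643 clusters per 10000 for these genes and 0.130 for protein-coding genes. By number, all 51 had a higher mean in the IPs, whose lists are longer.

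EIF4E, EIF2B5 and EIF2B3 were the genes called higher. Against the 6 inputs of the tagged lines alone, EIF2B5 kept its call (adjusted p = 0.0344, exact permutation test), and EIF4E (0.0929) and EIF2B3 (0.0984) lost it. Among the higher-scoring clusters of each list (the median score or more), none of the 3 was called. EIF4E took 1.18 ± 0.475 clusters per 10000 (SD, n = 6) in the IPs and 0.107 ± 0.322 (SD, n = 9) in the inputs, a difference of 1.07 (exact permutation test, adjusted p = 0.0201). The only input with a cluster (SCAF8 input 2) lay within the range of the IP lists, and the other 8 inputs held none. EIF2B5 took 0.885 ± 0.271 (n = 6) in the IPs and 0.0889 ± 0.267 (n = 9) in the inputs (exact permutation test, adjusted p = 0.0201). EIF2B3 took 0.552 ± 0.349 (n = 6) in the IPs and none in the inputs (exact permutation test, adjusted p = 0.0203). The inputs hold 72277 clusters and the 6 IP lists 192335, so few clusters of such genes could appear in them. At the share of the IPs, the inputs would have held 8.50 clusters of EIF4E where 1 was found, 6.39 of EIF2B5 where 1 was found and 3.99 of EIF2B3 where 0 were found. A count of 0 in the 9 inputs allows up to 3 clusters, so for EIF2B3 the inputs are near what the test can resolve.

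EIF1, EIF4A1, EIF5A and EIF6 were called lower by share. EIF4A1, the main helicase, held 9, 14 and 14 clusters in the SCAF4 IPs, 12, 9 and 11 in the SCAF8 IPs, 9, 5 and 1 in the control IPs and 4 to 11 in the inputs. Its share was 3.96 ± 1.08 per 10000 in the IPs (SD, n = 6) and 10.1 ± 3.96 in the inputs (SD, n = 9; exact permutation test, adjusted p = 0.0282). By number it went the other way, with a mean of 11.5 clusters in the IPs and 7.33 in the inputs. Clusters covered up to 55.5% of its gene body in the IP lists and up to 31.6% in the inputs. EIF1, which guards start codon choice, had a share of 1.47 in the IPs and 4.81 in the inputs (adjusted p = 0.0282, exact permutation test), with up to 47.3% of its body covered. EIF6, which keeps the large subunit from joining early, had 1.15 and 3.48 (adjusted p = 0.0133, exact permutation test). EIF5A, which also acts in elongation, had 1.46 and 3.14 (adjusted p = 0.0266, exact permutation test). All 4 were short genes at the density limit, and the difference of all 4 changed sign when the number of clusters was tested instead of the share (1.50 more clusters per IP list for EIF1, 4.17 for EIF4A1, 1.89 for EIF5A and 0.667 for EIF6). In EIF6 and EIF5A the IP clusters covered at most 14.6% and 21.6% of the gene body. The part of coverage in these differences was not tested. EIF1 and EIF5A also have close copies in the genome (EIF1B, EIF5AL1). With the replicate number as a block, EIF4A1 was no longer called (adjusted p = 0.0559, exact permutation test within replicates). Against the inputs of the tagged lines alone, EIF5A lost its call (adjusted p = 0.0577, exact permutation test) and the other 3 lower genes kept theirs. Of the 7 genes called in either direction, EIF2B5 and EIF6 were still called without replicate 1 and none without replicate 2 or 3, where the smallest exact permutation p rises to 0.00476.

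**Figure D3:**
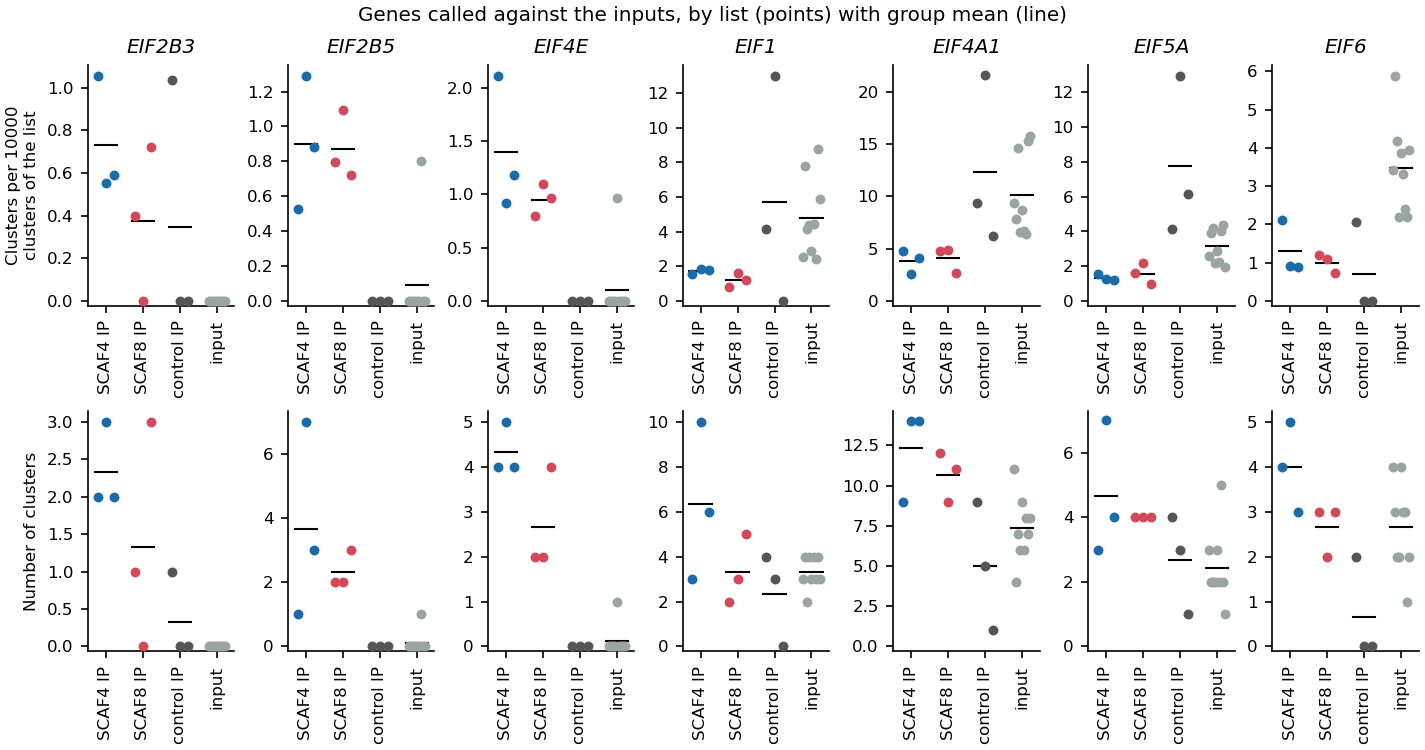
The 7 genes called against the inputs. Points are single lists and lines group means, for 3 SCAF4 IP, 3 SCAF8 IP, 3 control IP and 9 input lists. The upper row gives clusters per 10000 clusters of the list and the lower row the number of clusters. EIF1, EIF4A1, EIF5A and EIF6 are lower in the SCAF IPs in the upper row and not in the lower row, while EIF2B3, EIF2B5 and EIF4E are higher in both.

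**Figure D4:**
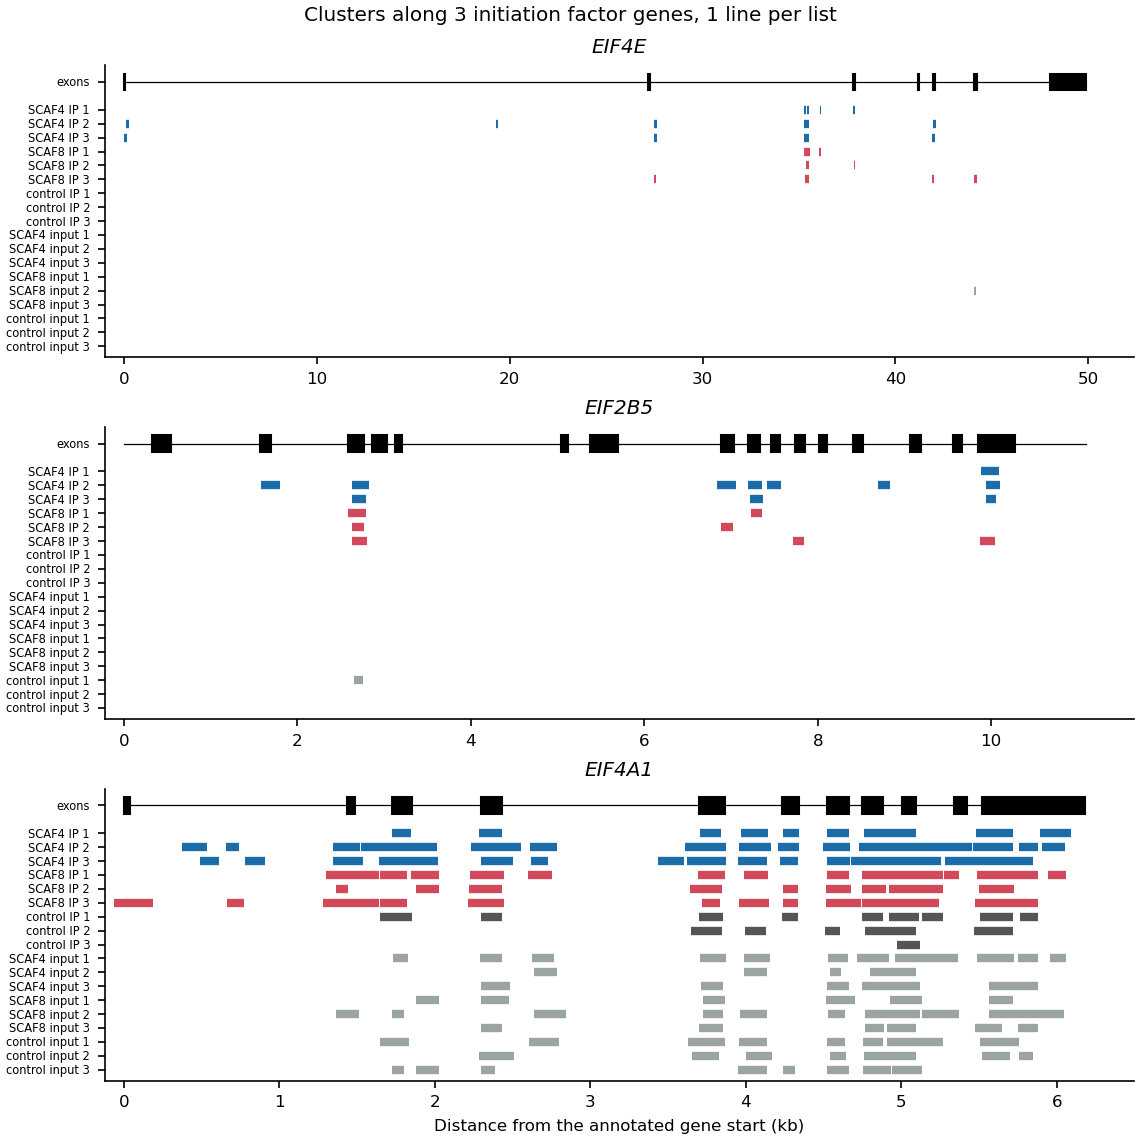
Clusters along EIF4E, EIF2B5 and EIF4A1, with 1 line per list and the exons of the canonical isoform in black. The horizontal axis is the distance from the annotated gene start in kb. In EIF4E all 6 SCAF IP lists share the region in intron 2, in EIF2B5 5 of 6 share exon 3, and EIF4A1 is filled by IP and input lists alike.

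Against the control IP, which shows what the FLAG antibody recovered without a tagged protein, 7 of the 51 genes (13.7%) had a higher share in every SCAF4 and SCAF8 IP list than in every control IP list, where the background is 11.2% of protein-coding genes. They were EIF2B1, EIF2B5, EIF3D, EIF3E, EIF3H, EIF3M and EIF4E. That share was near the background. Except for EIF3D, with 1 cluster in control IP 1, none had a control IP cluster. EIF3D, the subunit that can bind the cap itself, held 9, 21 and 19 clusters in the SCAF4 IPs and 5, 8 and 14 in the SCAF8 IPs. Lower than in every control IP list were 6 genes (11.8%; background 2.22%), EIF2S2, EIF3A, EIF3C, EIF4A1, EIF5A and EIF5AL1. The control IP lists are the shortest, so a single cluster weighs up to 6.17 per 10000 there. In the SCAF IPs, EIF4E took 1.18 per 10000, EIF2B5 0.885 and EIF2B1 0.713, so the lack of a control IP cluster says little for such genes. With 6 lists against 3, the exact permutation test gave at best an adjusted p of 0.133, so none of these genes could be called.

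SCAF4 and SCAF8 were compared gene by gene over 3 IP lists each, for which the smallest two-sided exact permutation p is 0.1. By share, 4 genes (7.84%, background 7.73%) were higher in every SCAF4 than in every SCAF8 IP list, EIF1AX, EIF4G2, EIF2S2 and EIF3M. The reverse held for 3 (5.88%, background 4.42%), EIF4A2, EIF5 and EIF2AK3. Both counts were near the background. By number of clusters, 2 genes were higher in every SCAF4 IP list and 0 in every SCAF8 IP list, with no background worked out by number. EIF1AX, which encodes eIF1A, held 14, 20 and 15 clusters in the SCAF4 IPs and 5, 1 and 6 in the SCAF8 IPs. The inputs of the same lines differed in the same direction, with 12, 6 and 6 clusters in the SCAF4 inputs, 2, 0 and 2 in the SCAF8 inputs and 3, 0 and 0 in the control inputs. A higher share of EIF1AX in the FLAG-SCAF4 line was thus already present before the IP. EIF4A2, the second helicase, held 5, 15 and 7 clusters in the SCAF4 IPs and 12, 13 and 12 in the SCAF8 IPs, and its inputs held 4 or 5 in the FLAG-SCAF4 line and 4 to 6 in the FLAG-SCAF8 line. EIF4G2, which lacks the eIF4E site, held 9, 21 and 18 against 6, 6 and 12. EIF5, the GTPase activator of eIF2, held 5, 14 and 7 against 8, 7 and 11.

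The position within the genes separated the IPs from the inputs in every list. A cluster was counted as crossing an exon-intron boundary when it covered at least 5 nt on both sides of one in the canonical isoform. It then reaches into an intron of that isoform, and the same sequence can be exonic in another isoform. In the initiation factor genes a boundary was crossed by 39.1%, 46.2% and 50.1% of the clusters in the SCAF4 IPs. In the SCAF8 IPs it was 37.7%, 41.7% and 35.8%. The control IPs had 32.4%, 16.3% and 21.7%, and the 9 inputs 10.9% to 23.3% with a median of 17.8%. The mean was 41.8% ± 5.46 in the SCAF4 and SCAF8 IPs (SD, n = 6) and 17.3% ± 3.70 in the inputs (SD, n = 9), and no SCAF IP overlapped any input or control IP. Over all protein-coding genes the means were 24.5% and 9.66%, lower on both sides, so the difference was not particular to these genes. Replicate 1, sequenced with longer reads than replicates 2 and 3 (100 and 75 nt), had 37.7% to 39.1% in the IPs and 17.8% to 21.0% in the inputs, and the others 35.8% to 50.1% and 10.9% to 23.3%.

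**Figure D5:**
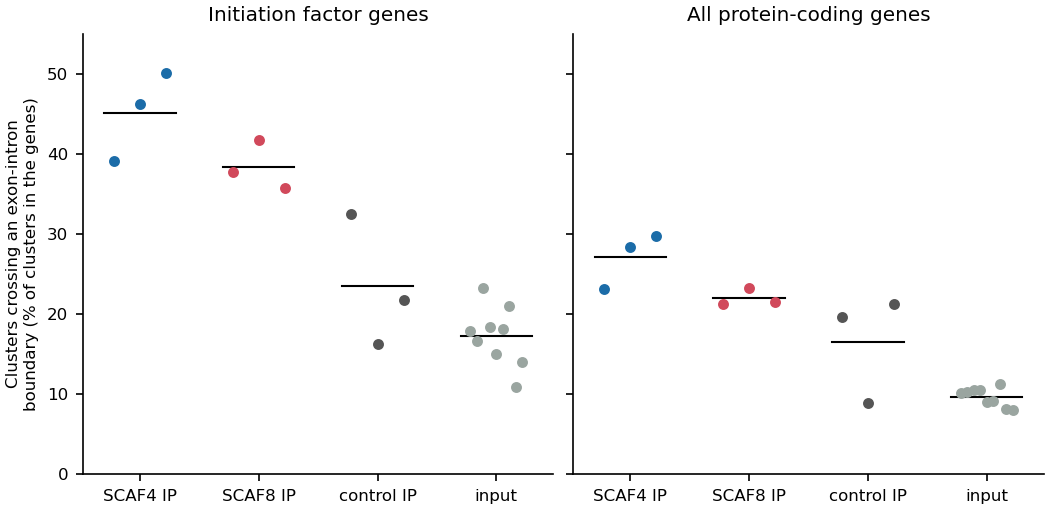
Share of clusters that cross an exon-intron boundary. Points are single lists and lines group means, for the initiation factor genes on the left and all protein-coding genes on the right. The 6 SCAF4 and SCAF8 IP lists sit between 35.8% and 50.1% on the left, above the 3 control IP and 9 input lists.

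Longer clusters reach a boundary more easily, and the clusters of these genes had a median length of 145 to 162 nt in the SCAF IP lists, 116 to 152 nt in the control IPs and 122 to 161 nt in the inputs. Among clusters of at most 150 nt, the share was 25.5% to 34.3% in the SCAF IPs, 10.3% to 28.3% in the control IPs and 0% to 21.2% in the inputs, so the IPs stayed above every input but no longer above every control IP. The 5′ splice site was covered by 27.5% of the IP clusters and 9.66% of the input clusters on average, and the 3′ splice site by 24.3% and 10.5%. By midpoint, 56.2% of the IP clusters lay in coding exons, 28.2% in introns and 13.6% in 3′ UTRs, and of the input clusters 48.3%, 28.1% and 23.2%.

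Single genes showed the same order with different sizes. In EIF4G1, the scaffold of the cap complex, 77 of 128 IP clusters (60.2%) crossed a boundary and 10 of 50 input clusters. In EIF2S2 it was 22 of 85 and 0 of 53, and in EIF5 34.6% and 3.33%. EIF3C had 59.6% and 6.06%, with the reservation that its near-identical copy EIF3CL shares reads with it. In EIF3D the shares were close, at 53.9% of 76 and 50.0% of 18. All 19 genes with at least 30 clusters over the 6 IP lists had the higher share in the IPs. The limit was set on IP clusters alone, and the inputs held as few as 10 clusters of a gene (EIF3CL). These genes come from the same lists, so they are not repeats of the comparison. The same count over other protein-coding genes was not made.

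Of the 52 consensus clusters, 29 were centred in coding exons, 17 in introns, 4 in 3′ UTRs and 1 in a 5′ UTR, and 1 lay outside the canonical isoform. A boundary was crossed by 24 (46.2%), against 35.8% of the 13889 consensus clusters of protein-coding genes. The 5′ splice site was covered by 23 of them (44.2%, against 24.0%) and the 3′ splice site by 8 (15.4%, against 19.4%). Before the removal steps, 220 of the 379 recurrent regions crossed a boundary, 173 a 5′ and 149 a 3′ splice site. In eIF2B, 9 of 12 consensus clusters covered a 5′ splice site. They include the regions at EIF2B5 exon 3, EIF2B1 exon 2 and EIF2B5 exon 9, of which the middle is printed above. The printed stretch reaches the splice site in EIF2B1 only, and in both EIF2B5 regions the site lies beyond its 3′ end. The consensus clusters had a median length of 169.5 nt, and 170 nt over all protein-coding genes.

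Some regions were common to all 6 IP lists and still left out. Before the removal steps, 87 regions of these genes were found in all 6 SCAF4 and SCAF8 IP lists, and 6 of the 87 were in no input and no control IP. Apart from the EIF4E region, these lay in EIF3C exon 20, EIF3D exon 7, EIF4A2 exon 3 and EIF4G1 exons 1 and 32, all in genes at the density limit and all crossing at least 1 exon-intron boundary. Of the 153 recurrent regions in no input and no control IP, 109 were removed by the density limit alone. Few consensus clusters in the eIF3, eIF4A and eIF4G genes therefore does not mean that all their IP regions were also found in inputs. Conversely, 9 regions were in all 6 IP lists and all 9 inputs. A snoRNA on the same strand lay under 9 of the recurrent regions, 4 in EIF4A2, 3 in EIF4A1 and 1 each in EIF1AX and EIF4G2, and snoRNA and host intron cannot be separated there.

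The motifs printed in capitals had a lower share in the consensus clusters of these genes than in those of all protein-coding genes, as a description with no test. In the 100 nt around the midpoint, on the transcribed strand, CGG or CGA occurred in 33 of 52 windows (63.5%, against 71.7%), any of the words of 5 letters in capitals in 15 (28.8%, against 44.3%) and CTCC or CACC in 17 (32.7%, against 48.3%). GTAAG or GTGAG, the common forms of the 5′ splice site, occurred in 13 (25.0%, against 19.3%). The windows had a mean GC content of 44.8%, and those of protein-coding genes 49.9%, so the base composition moved with the motif shares, and its part in them was not tested. In the 173 regions of these genes found in at least 2 inputs, CGG or CGA occurred in 63.0%, the words of 5 letters in capitals in 37.0% and CTCC or CACC in 45.1%. GTAAG or GTGAG occurred in 24.3% of them, close to its share in the consensus clusters.

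Genes of translation outside the naming rule are given by their counts, with the same backgrounds as above (52.6% with a consensus cluster, 11.0% higher and 2.34% lower than input among protein-coding genes). Of 23 other initiation genes, 22 had a cluster, 11 were at the density limit and 8 had a consensus cluster, 28 in all. GCN1, the activator of GCN2, was the 1 gene called higher than input, and PAIP2 and DDX3X were the 2 called lower. Of 17 elongation and termination genes, 16 had a cluster, 7 were at the limit and 8 had a consensus cluster, 19 in all. DHPS, which starts the hypusine modification of eIF5A, and PELO, a ribosome rescue factor, were called higher, and EEF1A1, EEF1G, EEF2 and GSPT1 lower.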

How the data were processed

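PAR-CLIP libraries of FLAG IPs and 1% inputs were prepared from soluble and chromatin fractions, and the input was taken from the same extract as the IP. Per the labels and methods, the authors used bcl2fastq 1.8, cutadapt, Trim Galore, Bowtie2 2.2.9 and Picard, and PARalyzer called clusters with more than 10 reads and at least 8 T-to-C transitions on GRCh38, with both fractions combined. The deposited lists give coordinates, strand and a score of 0.501 to 1 that has no name and served only to rank clusters. They hold no reads, so the depth is unknown and the limits on reads could not be varied.

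Genes, exons and introns were taken from GENCODE 44 (GRCh38). Consensus clusters were built after the study's criteria but not identically. Regions were merged before the removal steps, and overlap with control IP clusters was a separate step, which the methods do not spell out, so the totals need not equal those of the study. How input clusters per 10 kb were counted is not given in the sources used here, and here it was the merged regions of the 9 inputs, with 2000 nt on each side of a gene included. Groups came from the sample labels. The gene comparison of 6 IP lists with 9 inputs used all 5005 splits. On simulated data, the test recovered most well-covered changed genes, and the unchanged genes that it called were all called higher and mostly had few expected input clusters. The simulated lists varied by counting alone. The genes called higher here were sparser than those well-covered genes, with means of 3.50 (EIF4E), 3.00 (EIF2B5) and 1.83 (EIF2B3) clusters per IP list. That recovery therefore does not cover them, and false calls of sparse genes went in their direction. Replicate numbers pair an IP with its input through the shared extract. Over 2411 genes, their deviations correlated with r from 0.0134 to 0.454 for the same number (9 pairs, median 0.171) and from -0.347 to 0.205 for different numbers (18 pairs, median -0.117). 

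The named genes were the 12 with the most consensus clusters, the next 5 by input clusters, up to 3 per direction between SCAF4 and SCAF8, all genes called against the inputs and all without a cluster, and a few others are named where a count of 7 or fewer is listed. The name rule uses no measurement, but this gene family, the comparison lists and the tests were chosen with earlier results of these data known. Alternatives left out each replicate, used clusters at or above the median score, a further list, no density limit, other isoforms, other inputs, the number of clusters and the replicate block. Analyses used Python 3.11.15, numpy 2.4.6, scipy 1.17.1, pysam 0.24.0 and matplotlib 3.10.9.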

Additional observations from a re-analysis of the deposited data

How the results depend on the processing

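Of the values for counts and shares under alternatives, 55 stayed within 1.5 times or within the spread between lists and 41 moved. Leaving out 1 replicate at a time gave 13 to 23 genes with a pooled consensus cluster, 28 to 67 pooled, 8 to 47 SCAF4 and 6 to 15 SCAF8 consensus clusters, 0 to 3 genes higher and 0 to 1 lower than input, 8 to 19 above every control IP, 8 to 16 higher in SCAF4 and 5 to 9 higher in SCAF8, 66.5% to 70.0% of clusters with the midpoint in an exon and 40.7% to 43.5% across a boundary. With 2 lists left per group, groups overlap less often by construction. Clusters at or above the median score left 19 SCAF4 consensus clusters, 1 gene higher and 0 lower than input, 3 above control IP, 1 higher in SCAF8 (none of the 7 genes called in the report kept its call) and 52.9% of clusters across a boundary. Requiring 1 more list left 24 pooled, 8 SCAF4 and 2 SCAF8 consensus clusters. Without the density limit there were 44 genes with 201 pooled, 139 SCAF4 and 67 SCAF8 consensus clusters. With the 6 inputs of the tagged lines 1 gene was higher than input, and among genes with at least 5 clusters 6 were. By number of clusters, 33 genes were higher and 0 lower than input, 19 above control IP, 2 higher in SCAF4 and 0 in SCAF8. An exon of any isoform held 82.2% of midpoints, and 33.3% of clusters crossed a boundary of the isoform with the most exonic sequence. The matching shares over all genes were not worked out under these alternatives. The gene counts therefore show only how far the results move, and nothing particular to these genes. The cause of these shifts was not tested.

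Of the 7 genes called against the inputs, 36 values under alternatives kept direction and call, 28 lost the call and 6 reversed. The reversed differences were, by number of clusters, 1.50 for EIF1, 4.17 for EIF4A1, 1.89 for EIF5A and 0.667 for EIF6, and at or above the median score 0.369 for EIF5A and 0.720 for EIF6 per 10000. The replicate block gave 3 genes higher and 3 lower than input, losing EIF4A1 (adjusted p = 0.0559, exact permutation test), and changed no other call. Unequal list lengths and unknown depth limit every comparison of sparse genes.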
